A study of Mus musculus with 14 samples.

Results

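The 4 mouse Hox clusters (Hoxa, Hoxb, Hoxc and Hoxd) were described here as a map of 2 histone marks in regulatory T cells. The clusters were taken as 4 windows set in mm39 coordinates, which hold 38 Hox genes: 10 of Hoxa, 10 of Hoxb, 9 of Hoxc and 9 of Hoxd. The Hoxa window was chr6:52120000-52250000, the Hoxb window chr11:96075000-96270000, the Hoxc window chr15:102815000-102960000 and the Hoxd window chr2:74485000-74605000. In these windows lay 627 of the 309136 peaks of all 10 deposited lists, and all 627 came from the 4 lists of trimethylated lysine 27 of histone H3 (H3K27me3). No peak of acetylated lysine 27 (H3K27ac) lay in any window in any of the 6 lists of that mark. Regulatory T cells were sorted by FACS from chimeric mice and 140000 cells per sample were profiled by CUT&Tag, in which an antibody directs a transposase to cut and tag the DNA next to a mark. Control samples came from mice given as Foxp3YFPcre;wt, in which Foxp3, the lineage factor of these cells, drives a Cre recombinase. Knockout samples came from mice given as Foxp3YFP-Slc31a1△;wt, with a deletion of Slc31a1, which encodes the copper importer CTR1. That genotype as given does not name the Cre, and the wt part of both genotypes is not explained in the labels. No further treatment and no age is given in the labels. H3K27me3 was profiled in 2 control and 2 knockout samples and H3K27ac in 3 of each. Samples are numbered within each mark. Control 1 and knockout 1 are of chimera 1 for H3K27me3 but of chimera 2 for H3K27ac. The labels name a chimera for each sample but not whether one animal or a pool gave it, so p-values measure only the spread between these samples. The other 4 of the 14 samples were IgG libraries, 3 control and 1 knockout, and were not analysed here.

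Hox genes encode homeodomain transcription factors that give embryonic cells their position along the body axis, and their order along each cluster mirrors the order in which they are used. Polycomb repressive complex 2 writes H3K27me3, and in cells that do not use a Hox cluster the mark usually spreads over it as a broad domain. H3K27ac sits on the same lysine, marks active promoters and enhancers, and cannot occupy the same histone tail at the same time. A Hox cluster in a mature lymphocyte is therefore a standard place to read how continuous a Polycomb domain is. Read from low to high coordinate, the Hoxa window runs from Hoxa2 to Hoxa13, the Hoxb window from Hoxb13 to Hoxb1, the Hoxc window from Hoxc13 to Hoxc4 and the Hoxd window from Hoxd13 to Hoxd1, by the order of genes in RefSeq. Low-numbered genes such as Hoxa2 and Hoxb1 pattern the hindbrain, and those numbered 13 (Hoxa13, Hoxb13, Hoxc13, Hoxd13) act at the tail end of the body or in the limb tips and skin. The gene coordinates used for names belong to another build than the lists, so peaks were not assigned to single genes and the marker genes of regulatory T cells were not checked.

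CpG-rich promoters are the usual sites where Polycomb complexes are recruited in mammals, so promoters at the high and low end of CpG content in the clusters are shown. They are RefSeq sequences of GRCm38.p6, a different build from that of the peak lists, from 250 bases before to 50 bases after the gene start, written 5′ to 3′ on the gene's strand with CpG dinucleotides in capitals. The Hoxa13 promoter is at chr6:52260831-52261130 on the minus strand, that of Hoxd13 at chr2:74667975-74668274 on the plus strand and that of Hoxa9 at chr6:52227321-52227620 on the minus strand.
Hoxa13: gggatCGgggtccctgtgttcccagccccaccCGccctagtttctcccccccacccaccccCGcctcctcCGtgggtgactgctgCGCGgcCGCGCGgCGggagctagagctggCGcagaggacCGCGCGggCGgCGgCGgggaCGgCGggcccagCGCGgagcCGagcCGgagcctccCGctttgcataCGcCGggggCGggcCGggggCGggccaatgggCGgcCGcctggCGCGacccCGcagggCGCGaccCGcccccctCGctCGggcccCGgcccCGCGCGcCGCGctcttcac
Hoxd13: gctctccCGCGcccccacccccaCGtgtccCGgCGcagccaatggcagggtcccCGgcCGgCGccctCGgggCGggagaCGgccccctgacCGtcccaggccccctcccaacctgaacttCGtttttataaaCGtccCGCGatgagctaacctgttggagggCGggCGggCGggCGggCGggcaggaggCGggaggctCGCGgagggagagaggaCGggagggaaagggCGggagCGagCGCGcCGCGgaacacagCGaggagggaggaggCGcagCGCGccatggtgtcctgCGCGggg
Hoxa9: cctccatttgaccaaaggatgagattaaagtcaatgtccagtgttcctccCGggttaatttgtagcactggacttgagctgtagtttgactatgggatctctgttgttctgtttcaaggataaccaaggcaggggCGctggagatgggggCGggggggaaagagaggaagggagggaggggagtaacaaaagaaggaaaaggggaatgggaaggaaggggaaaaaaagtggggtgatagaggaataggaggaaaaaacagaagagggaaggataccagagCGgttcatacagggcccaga
Hoxa13 held 45 CpG in 300 bases, a number reached by 1.93% of all 32851 RefSeq promoter entries, and Hoxd13 held 37, reached by 5.58%. Hoxa9, a regulator of blood stem cells whose RefSeq entry is shown, held only 4, which 68.6% of all entries reach. RefSeq entries were matched for 22 of the 38 genes (9 Hoxa, 3 Hoxb, 1 Hoxc and 9 Hoxd) and gave 24 promoters, since Hoxa10 and Hoxd11 have 2 entries each. The median was 14.5 CpG per promoter, with quartiles of 9 and 22.75, against a median of 7 over all entries with quartiles of 3 and 20. At least 20 CpG were found in 11 of the 24 Hox promoters (45.8%) and in 26.5% of all entries. The other entries at the top were Hoxa5 and Hoxd1 with 29 each and Hoxa6 with 26, while Hoxd4 and 1 of the 2 Hoxd11 entries were at 4 as well. Hoxb4 held 14, Hoxb8 13, Hoxb1 10 and Hoxc4 9, so the few matched Hoxb and Hoxc promoters sat in the middle of the range.

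**Figure D1:**
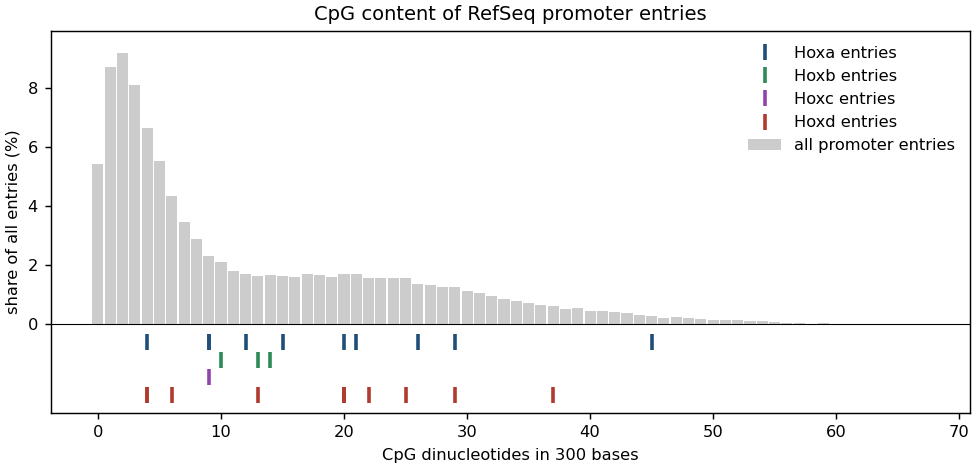
CpG dinucleotides per 300-base RefSeq promoter entry (x axis) against the share of all 32851 entries in percent (grey bars, y axis); the coloured ticks under the bars are the 24 Hox entries, 1 row per cluster, and their height has no meaning. The Hox ticks spread over the range, with 11 of 24 at 20 CpG or more and Hoxa13 the farthest right with 45, while Hoxa9, Hoxd4 and 1 of the 2 Hoxd11 entries lie with the bulk at 4.

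The clusters also hold microRNA genes, which target Hox messages among others. The 5p arms of 2 families are shown because their seeds, bases 2 to 8, in capitals, are shared between clusters.
miR-196a-5p: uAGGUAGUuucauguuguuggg
miR-196b-5p: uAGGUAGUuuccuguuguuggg
miR-10a-5p: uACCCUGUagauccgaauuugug
miR-10b-5p: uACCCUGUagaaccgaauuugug
Mir196b lies between Hoxa9 and Hoxa10, Mir196a-1 between Hoxb13 and Hoxb9, and Mir196a-2 between Hoxc10 and Hoxc9, so the seed AGGUAGU recurs in the Hoxa, Hoxb and Hoxc clusters. Mir10a lies in the Hoxb cluster and Mir10b in the Hoxd cluster, and both have the seed ACCCUGU.

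The 4 H3K27me3 lists differed in length and in threshold before any Hox window was read. The list of control 1 held 7512 peaks with a lowest −log10 p of 2.02 and a highest of 7.21, while control 2, knockout 1 and knockout 2 held 43945, 36436 and 57728 peaks, none of them under a −log10 p of 9. Peaks covered 0.191%, 1.58%, 1.20% and 2.46% of the genome between the first and last peak of each chromosome in control 1, control 2, knockout 1 and knockout 2. Control 1 therefore stands apart from the rest, and comparisons that rest on it are also given without it. The 6 H3K27ac lists were alike in length, from 21326 to 32012 peaks. A peak list states where signal passed a threshold and holds no read counts, so the depth of each library is unknown and uncovered does not mean free of the mark.

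H3K27me3 covered the clusters broadly in control 2 and knockout 2 and sparsely in control 1 and knockout 1. In the 4 windows together, 30.8% of bases lay under a peak in control 2 and 44.3% in knockout 2, against 5.04% in control 1 and 5.49% in knockout 1. The number of peaks was 49 in control 1, 239 in control 2, 53 in knockout 1 and 286 in knockout 2. The split in these shares thus ran between the samples numbered 1 and those numbered 2, with 1 control and 1 knockout on each side. The 2 sparse lists were not alike. The window share was 26.3 times the genome share in control 1, the shortest list, and 4.58 times in knockout 1. In control 2 and knockout 2 the order of the clusters was the same, with Hoxc highest, then Hoxd, Hoxb and Hoxa. In knockout 1 Hoxc was highest as well, followed by Hoxb, Hoxd and Hoxa, and in control 1 Hoxa was highest and Hoxc lowest. No window lay under 1 unbroken peak in any list. The widest peak in a window measured 2001 bases in control 1, 3017 in control 2, 2244 in knockout 1 and 4331 in knockout 2. The median peak width of the whole lists was 510 to 623 bases. Peaks called this short cannot show whether the domain itself is unbroken.

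**Figure D2:**
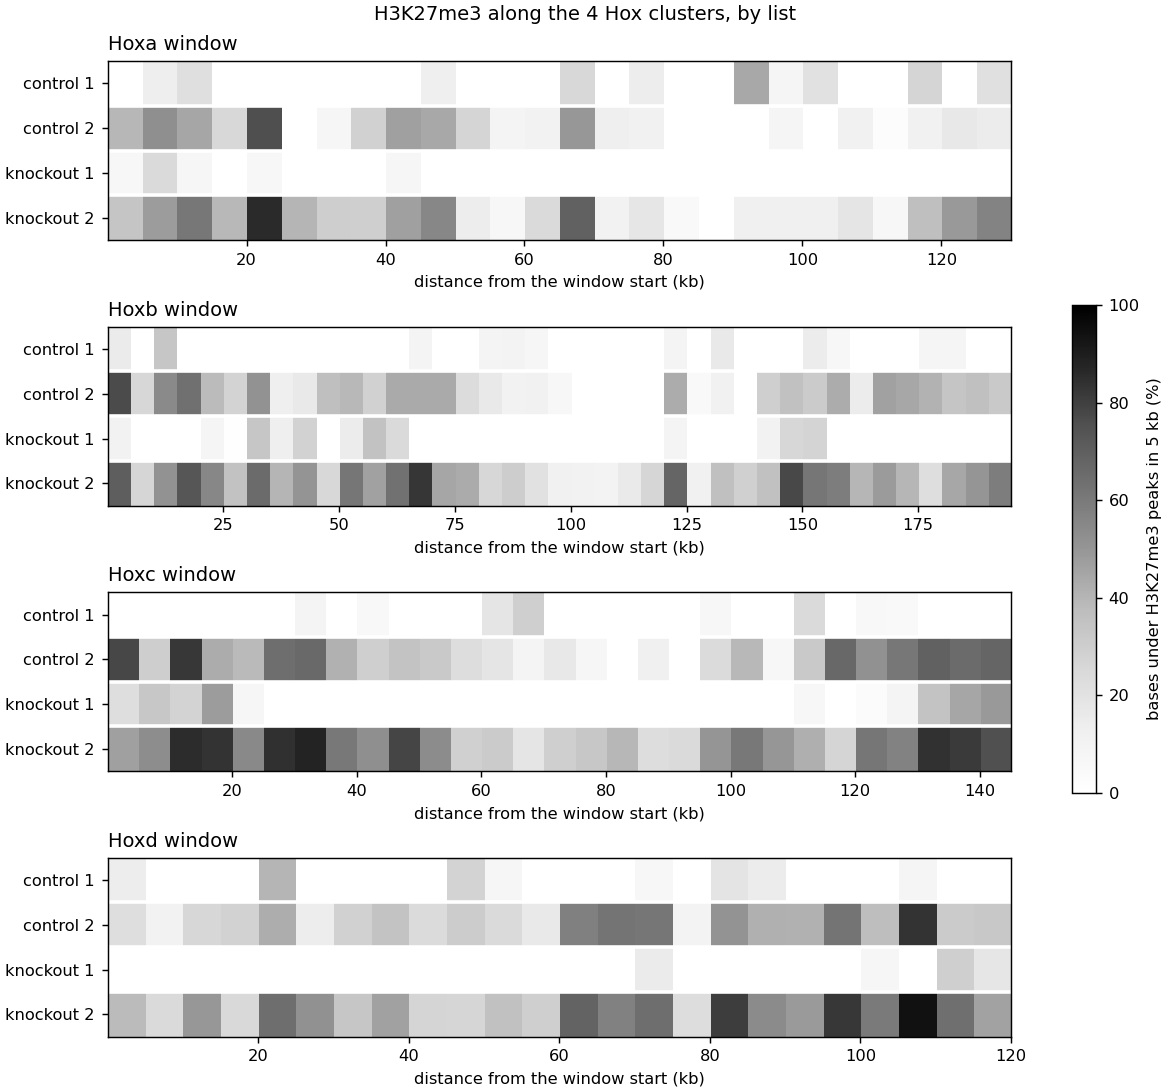
Share of each 5 kb step under H3K27me3 peaks, in percent (grey scale from 0 to 100), along each Hox window (x axis, distance from the low-coordinate edge in kb), with 1 strip per list. Control 2 and knockout 2 are grey over most of every window with the same paler stretches, while knockout 1 is white over long inner stretches and control 1 shows scattered patches.

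The Hoxa cluster, which runs from the hindbrain gene Hoxa2 through Hoxa9 and Hoxa10 to the limb and genital gene Hoxa13, was the least covered in control 2, knockout 1 and knockout 2. Its share was 8.0% in control 1, 21.0% in control 2, 1.99% in knockout 1 and 31.5% in knockout 2, from 16, 40, 5 and 53 peaks. In control 2 and knockout 2 coverage was densest at the Hoxa2 side of the window. The 5 kb step chr6:52140001-52145000 held 3775 bases under peaks in control 2 and 4280 in knockout 2, with 322 in knockout 1 and 0 in control 1. The strongest knockout 2 peak of the window, chr6:52139749-52144041 with a −log10 p of 42.7, spans 4293 bases and overlaps that step. Toward the Hoxa13 side the mark thinned, apart from a return at the edge in knockout 2, where chr6:52245001-52250000 held 2819 bases, and chr6:52205001-52210000 had no base under a peak in any of the 4 lists. Knockout 1 had its last peak before base 52164337 and none on the remaining 85664 bases. In control 1 the pattern went the other way, with 14 of its 16 peaks on those same bases. Its fullest step was chr6:52210001-52215000, where 2203 bases were covered against 0 in control 2, 0 in knockout 1 and 611 in knockout 2. The control 1 Hoxa peaks had a median −log10 p of 2.98, while no peak of the other 3 lists was under 9. That pattern thus rests on 1 library and on weaker calls.

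The Hoxb cluster begins at low coordinates with Hoxb13, is followed by a long interval before Hoxb9, and ends with Hoxb1, a hindbrain gene. Its share was 3.74% in control 1, 28.5% in control 2, 6.17% in knockout 1 and 42.7% in knockout 2, from 15, 77, 21 and 101 peaks. Knockout 1 held most of its Hoxb peaks in the low-coordinate part. At chr11:96130001-96140000 it covered 2937 bases against 3584 in control 2 and 5471 in knockout 2, with 0 in control 1. From base 96139747 to base 96199539 knockout 1 had no peak, and there control 2 covered 16.0% with 16 peaks and knockout 2 32.1% with 32. Both of the fuller lists were also thin inside this stretch: at chr11:96180001-96190000 knockout 2 covered 1283 bases and the other lists 0. The strongest peak of knockout 2, chr11:96075697-96077527 with a −log10 p of 42.8, lay at the Hoxb13 side, as did that of control 2 at chr11:96084515-96086138 with 33.7.

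The Hoxc cluster, whose high-numbered genes Hoxc13 to Hoxc10 lie first and Hoxc4 last, was the most covered in 3 of the 4 lists. Its share was 3.58% in control 1, 38.1% in control 2, 9.84% in knockout 1 and 53.5% in knockout 2, from 8, 63, 21 and 75 peaks. In control 2 and knockout 2 the outer parts of the window were denser than its middle. The step chr15:102840001-102850000 held 6520 bases under peaks in control 2 and 8592 in knockout 2, and chr15:102950001-102960000 held 6627 and 7836, while the middle step chr15:102890001-102900000 held 358 and 3605. Knockout 1 covered both ends too, with 3038 bases at chr15:102820001-102830000 and 4688 at chr15:102950001-102960000. Between bases 102839385 and 102927743 it had no peak over 88359 bases, the longest such stretch of the 4 windows in any H3K27me3 list, while control 2 held 33 peaks there and knockout 2 held 47. Control 1 held 6 of its 8 Hoxc peaks in that stretch.

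The Hoxd cluster starts with Hoxd13, the main digit gene, and ends with Hoxd4 and Hoxd1. Its share was 5.71% in control 1, 36.2% in control 2, 2.90% in knockout 1 and 49.7% in knockout 2, from 10, 59, 6 and 57 peaks. Here control 2 and knockout 2 had a peak in each of the 24 steps of 5 kb, so peaks were spread from end to end. Between them, 63.8% of the bases in control 2 and 50.3% in knockout 2 lay under no peak, with longest breaks of 4444 and 3354 bases. The fullest 10 kb of knockout 2 lay near the Hoxd1 side: chr2:74590001-74600000 held 7891 bases in knockout 2 and 5722 in control 2, with 391 in control 1 and 1472 in knockout 1. Control 2 was fullest at chr2:74550001-74560000 with 6152 bases, where knockout 2 had 6072. The strongest peak of both lists lay near the Hoxd1 side and at nearly the same bases, chr2:74592942-74595030 with a −log10 p of 34.6 in control 2 and chr2:74592866-74595046 with 52.8 in knockout 2. Knockout 1 had no peak on the 71355 bases from the low edge to base 74556354, where control 2 covered 29.8% and knockout 2 41.3%. Its own strongest peak, chr2:74602156-74602643 with a −log10 p of 26.9, lay at the high edge. In control 1 the highest −log10 p of the window, 2.98, was also the median of its 10 Hoxd peaks, so no single peak led.

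Against the rest of the genome the windows were rich in the mark in every list, but to a different degree. The share of the windows under peaks was 26.3 times the genome share in control 1, 19.5 times in control 2, 4.58 times in knockout 1 and 18.0 times in knockout 2. When the genome was divided into tiles as long as each window, the Hoxc window was matched or passed by 8 of 17620 tiles (0.0454%) in control 2 and by 10 (0.0568%) in knockout 2, but by 487 (2.76%) in knockout 1. The Hoxa window was matched by 184 of 19656 tiles (0.936%) in control 2, 159 (0.809%) in knockout 2, 24 (0.122%) in control 1 and 3287 (16.7%) in knockout 1. For Hoxb and Hoxd the shares were 0.160% and 0.127% in control 2, 0.145% and 0.113% in knockout 2, 0.725% and 0.380% in control 1, and 5.56% and 13.1% in knockout 1. Hox peaks were of middling strength in their lists. The median −log10 p of Hox peaks stood at percentiles 44.5, 56.7, 43.8 and 51.9 of the lists of control 1, control 2, knockout 1 and knockout 2. The strongest peak of each window stood at percentiles 91.0 to 97.0 in control 2 and 92.8 to 96.8 in knockout 2. The authors' fold over background had a median of 4.21 in Hox peaks of control 2 against 5.49 in its whole list, and of 3.92 against 5.34 in knockout 2.

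The mark did not stop at the window edges. In control 2 the 200 kb on the low and high side of Hoxc were covered to 21.1% and 33.6%, and in knockout 2 to 38.1% and 41.9%. Flanks of Hoxd were lower, with 5.38% and 10.2% in control 2 and 7.29% and 23.7% in knockout 2. In these 2 lists each window was covered more than both of its flanks. In knockout 1 the relation was different: Hoxa (1.99%) lay under both flanks (6.23% and 7.67%), Hoxc (9.84%) lay under both flanks (19.5% and 17.1%), Hoxb (6.17%) lay under its low flank (14.2%) and above its high flank (3.20%), and Hoxd (2.90%) lay under its high flank (13.4%) and level with its low flank (2.87%). In control 1 each window was above its flanks apart from Hoxc, whose 3.58% lay under the 5.29% of the high flank. Neither comparison was tested, since flanks and windows of a list are not replicates.

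**Figure D3:**
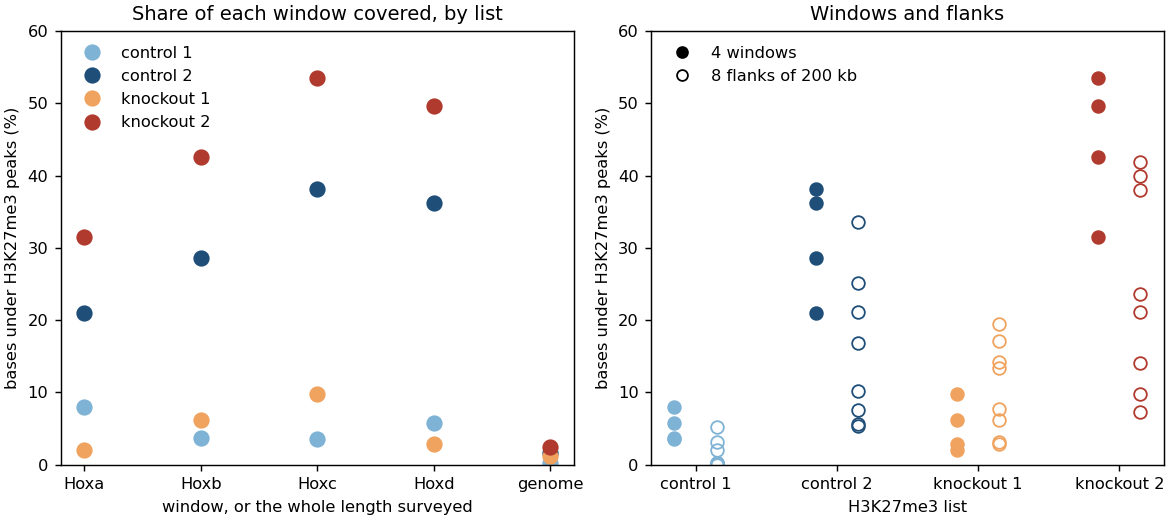
Bases under H3K27me3 peaks in percent (y axis). Left, each Hox window and the whole length surveyed, with 1 point per list; right, the 4 windows (filled) and their 8 flanks of 200 kb (open) by list. Knockout 2 and control 2 lie far above the genome in every window, and in knockout 1 the filled points lie among or under the open ones.

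Between the genotypes no difference in the share covered was larger than the spread between samples. The controls averaged 17.9% ± 18.2 of the 4 windows (SD, n = 2) and the knockouts 24.9% ± 27.4 (SD, n = 2), a difference of 6.97 percentage points with a two-sided exact permutation p of 0.667. The smallest p that 2 samples against 2 allow is 0.333, so this design cannot reach the threshold. By cluster the knockouts minus controls were 2.26 points for Hoxa (exact permutation p = 1), 8.27 for Hoxb (p = 0.667), 10.8 for Hoxc (p = 0.667) and 5.32 for Hoxd (p = 1), and the values adjusted over the 4 windows were 1 for each. The knockout SD was 20.9 for Hoxa, 25.8 for Hoxb, 30.9 for Hoxc and 33.1 for Hoxd, larger than each difference. The direction rested on single libraries: the difference over the 4 windows was −5.91 without control 1, 19.8 without control 2, 26.4 without knockout 1 and −12.4 without knockout 2. With all lists cut to their 7512 strongest peaks it was −1.29, from 5.04% in control 1, 5.94% in control 2, 0.668% in knockout 1 and 7.73% in knockout 2. Among the samples numbered 2 alone the knockout was higher in each of the 4 clusters, and its list was also the longest.

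The low coverage of knockout 1 in the clusters was not matched by a short list, since knockout 1 held 36436 peaks against 43945 in control 2. Over the 36436 strongest peaks of each list, the windows were covered to 27.8% in control 2, 5.49% in knockout 1 and 33.8% in knockout 2. Of the 118 steps of 5 kb in the windows, 80 held no peak in control 1, 12 in control 2, 85 in knockout 1 and 1 in knockout 2. Both control 2 and knockout 2 had a peak in 106 steps, and knockout 1 was empty in 73 of these (68.9%), against 6211 of 26190 such steps in the whole genome (23.7%). Control 1 was empty in 70 of the 106 (66.0%), against 77.7% in the genome. In 36 steps control 1 had a peak as well, and knockout 1 was empty in 27 of them (75%), with 6 of 8 in Hoxa, 9 of 12 in Hoxb, 5 of 8 in Hoxc and 7 of 8 in Hoxd, against 17.7% in the genome. These shares describe 1 library and were not tested, and the part that its depth or background library has in them was not tested.

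In the overlap of the lists, knockout 1 covered a smaller part of the other lists' Hox bases than of their bases in the whole genome. Of the Hox bases under control 2 peaks, 84.9% lay under knockout 2 peaks too, close to the 86.8% in the whole genome, while 12.3% lay under knockout 1 peaks against 46.2% in the genome. Of the Hox bases under knockout 2 peaks, 59.0% lay under control 2 and 11.0% under knockout 1, against 56.0% and 41.3% in the genome. Where knockout 1 did have Hox peaks, they were mostly shared: 69.0% of its bases lay under control 2 and 88.9% under knockout 2, against 61.0% and 84.5%. Control 1 shared 69.4% of its Hox bases with control 2 and 80.4% with knockout 2, less than in the genome (92.2% and 96.5%), and 6.46% with knockout 1 (52.1%).

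Among 100 kb tiles that both control 2 and knockout 2 covered to at least 20%, a limit set after seeing the data, 8 of 333 touched a Hox window. In these 8 the share of knockout 1 divided by that of knockout 2 had a median of 0.198, from 0.0502 to 0.371, against a median of 0.485 in the other 325, from 0.0716 to 0.938. Of the other tiles 70 (21.5%) had a ratio at or under the highest Hox value, so low ratios also occurred elsewhere. The Hoxd tile chr2:74500001-74600000 had the lowest ratio of all 333, with 38.9% covered in control 2, 51.7% in knockout 2, 6.16% in control 1 and 2.59% in knockout 1. The Hoxa tile chr6:52100001-52200000 was at 24.1%, 32.4%, 4.37% and 2.58% in the same order. In control 1 the Hox tiles did not lie low, with a median of 4.2% against 3.38% in the others.

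**Figure D4:**
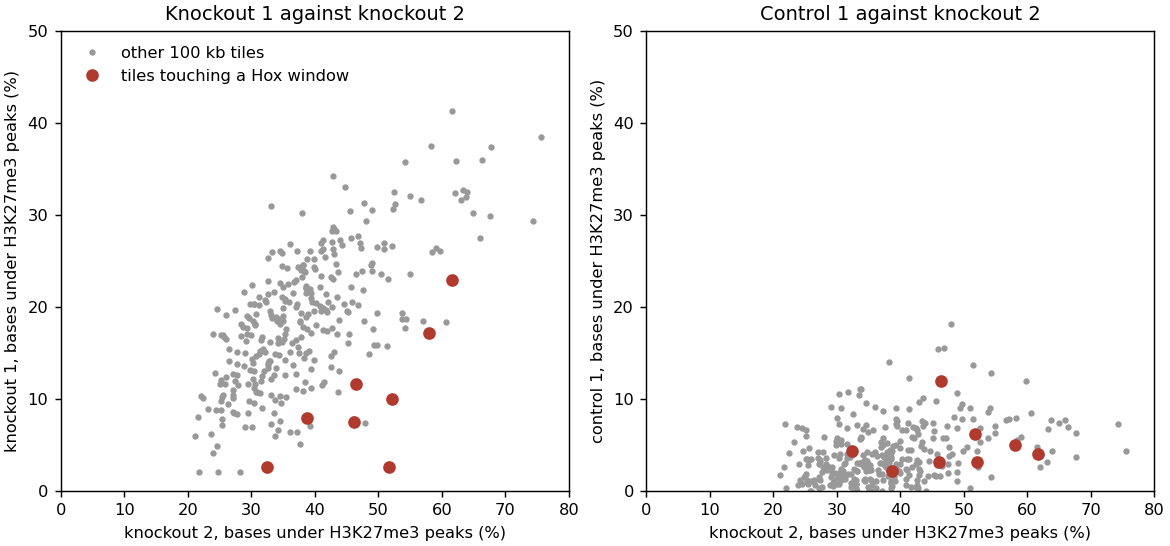
H3K27me3 in the 333 tiles of 100 kb covered to at least 20% in both control 2 and knockout 2, with the share in knockout 2 on the x axis and that in knockout 1 (left) or control 1 (right) on the y axis, all in percent; red points are the 8 tiles that touch a Hox window. The red points lie along the lower edge of the cloud on the left, with 2 close to 0, and inside the cloud on the right.

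Merging the peaks of the 4 lists gave 297 separate H3K27me3 regions in the windows, 61 in Hoxa, 101 in Hoxb, 76 in Hoxc and 59 in Hoxd. Control 2 and knockout 2 shared 186 of them (62.6%), against 47.1% of the 63335 regions of the whole genome. A peak of every list was held by 8 regions (2.69%, against 6.10% in the genome): chr6:52126100-52127965 and chr6:52133512-52135374 at the Hoxa2 side of Hoxa, chr11:96075535-96077527, chr11:96138869-96143026, chr11:96226474-96227977 and chr11:96228453-96231156 in Hoxb, and chr15:102927615-102929002 and chr15:102939552-102940593 toward the Hoxc4 side of Hoxc. Hoxd had none. No region was found in both controls and neither knockout, a class that held 0.0426% of regions in the genome. In both knockouts and neither control there were 3 (1.01%, against 9.94% in the genome), chr11:96113740-96114103 in Hoxb and chr15:102821391-102821950 and chr15:102834202-102835072 in Hoxc. Of the 103 regions of 1 list alone, 81 came from knockout 2, 18 from control 2, 4 from control 1 and 0 from knockout 1. All 4 of control 1 lay in Hoxa, at chr6:52198687-52199403, chr6:52213066-52214344, chr6:52217287-52217598 and chr6:52220777-52221178.

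Breaks, meaning stretches under no called peak, were shortest in knockout 2 and longest in knockout 1. Since the lists hold short peaks, a break does not show that the mark itself is interrupted. The longest uncovered stretch in knockout 2 was 6718 bases in Hoxa, 4426 in Hoxb, 3477 in Hoxc and 3354 in Hoxd, and in control 2 it was 21736, 23422, 12257 and 4444. Stretches of 2 kb or longer took up 57.7% of Hoxa, 48.5% of Hoxb, 32.0% of Hoxc and 32.2% of Hoxd in control 2, and 38.8%, 24.4%, 12.4% and 16.2% in knockout 2. In knockout 1 they took up 96.9%, 88.3%, 81.1% and 94.6%, and in control 1 84.9%, 94.4%, 96.4% and 92.4%. The 3 lists other than control 1 had 33 such stretches in common, 11 in Hoxa, 12 in Hoxb, 4 in Hoxc and 6 in Hoxd.

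Of the 10 longest common breaks, 7 lay in Hoxa, 6 of them past the middle of the window toward Hoxa13. The longest was chr6:52204137-52210854 with 6718 bases, of which control 1 covered 136. Next came chr6:52197805-52203891 with 6087 bases, chr6:52177299-52182979 with 5681 and chr6:52230877-52236025 with 5149, of which control 1 covered 717, 0 and 0. The other Hoxa breaks were chr6:52211228-52214762 (3535 bases, 1456 covered in control 1), chr6:52219932-52223337 (3406 bases, 672 covered) and chr6:52215038-52218317 (3280 bases, 383 covered). Hoxb had chr11:96200244-96204563 with 4320 bases and chr11:96181540-96185525 with 3986, and Hoxd had chr2:74523883-74527236 with 3354, none of which control 1 covered. No H3K27ac peak filled any of the 33 breaks. The Hoxa stretch from base 52197805 to base 52223337, which was thin in the 3 longer lists, was the part where control 1 had peaks of its own. Those peaks belong to the list that reaches down to a −log10 p of 2.02.

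H3K27ac was below the threshold of the lists over all 4 clusters in both genotypes. No peak of the 6 lists lay in a window, so the share covered was 0 in 3 controls and 3 knockouts, and none of the 57 bins of 10 kb that lie in the windows held a base of the mark. This is common for stretches of this length: 64.5% of tiles as long as the Hoxa window, 58.1% for Hoxb, 62.9% for Hoxc and 65.7% for Hoxd held no H3K27ac peak in any of the 6 lists. In chimera 2 of each genotype, which gave both marks, 0 bases of the windows were under both, with 181707 under H3K27me3 in the control and 261318 in the knockout.

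The distance from each window to the nearest H3K27ac peak differed by cluster. The sample numbers here are those of H3K27ac, whose control 1 and knockout 1 are not the chimeras of H3K27me3 control 1 and knockout 1. On the high-coordinate side of Hoxb, past Hoxb1, the nearest peak was 61.8 to 62.2 kb away in all 6 lists, and 11.1% to 14.4% of the 200 kb there lay under H3K27ac. On the low side of Hoxb the nearest peak was 123.3 to 125.1 kb away. Hoxc was 185.0 to 379.3 kb from a peak on the low side and 189.1 to 401.9 kb on the high side. Hoxa was 597.2 to 671.7 kb from a peak on the low side in 5 lists and 26.6 kb in control 3, and 368.0 to 440.5 kb on the high side in all 6. Hoxd was 742.2 to 742.7 kb from a peak on the low side in 5 lists and 75.7 kb in control 3. On the Hoxd1 side the nearest peak was 51.1 to 51.3 kb away in control 2, control 3 and knockout 1, 290.2 kb in control 1, and 856.6 and 856.7 kb in knockouts 2 and 3, so the genotypes overlapped.

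Bin by bin, no 10 kb of the Hox clusters passed the test between genotypes. Bins were tested with limma on log2(covered bases + 100) after centring each list by its median value in those bins that all 4 lists cover, which lowered every log2 change by 1.04. Of 21034 bins of the genome tested, 0.0428% were called lower and 0.257% higher in the knockouts at an adjusted p under 0.05. Of the 55 Hox bins tested, 0 were called in either direction; at an unadjusted limma p under 0.05, 13 were lower and 1 was higher, beside 3.15% and 7.36% of all bins tested. The median log2 change of the 55 was −1.06 after centring, with 15 above 0, and the median over all bins was 0.78. Without centring the Hox median was −0.02, with 27 above 0, and the median over all bins was 1.82, with 0 Hox bins called. Without centring 0 Hox bins were lower and 0 higher at an unadjusted limma p under 0.05. All 13 bins lower after centring had 0 covered bases in knockout 1 and 717 to 2623 in control 1, the list with the lowest threshold. The lowest adjusted p was 0.169 (limma), in the Hoxa bin chr6:52210001-52220000, where control 1 covered 2623 bases, control 2 391, knockout 1 0 and knockout 2 1213, for a log2 change of −2.71 after centring (SE 0.858) and of −1.67 without it. Here knockout 2 lay between the controls, so the groups overlapped. The 1 higher bin was chr15:102950001-102960000 at the Hoxc4 side, with 0, 6627, 4688 and 7836 bases in the same order, a log2 change of 1.87 after centring and 2.91 without it, and an adjusted limma p of 0.469. Without knockout 1 the median Hox change was 0.65, and without control 1 it was −1.71, each with 0 bins called. Without control 2, which leaves control 1 as the only control and assumes that it varies like the knockouts, 10 of 43 Hox bins tested were called lower and 9 higher, beside 4.69% and 32.8% of all bins tested. Without knockout 2 the counts were 2 and 0 of 43, beside 1.25% and 0.625%. With quantile normalization 11 of 55 Hox bins were called lower and 0 higher, beside 1.57% and 0.242% of all bins tested.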

How the data were processed

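CUT&Tag reads of 14 samples were processed by the authors with Bowtie2 2.2.4, deepTools 3.5.1, MACS2, ChIPseeker 1.30.3 and HOMER 4.11 against mm39, per the submitters' processing notes. The settings, the background library of each peak call and the handling of duplicates are not given in the sources used here. The deposited lists give 1 peak per line, called per sample, with the authors' score, their fold (a ratio over background) at the summit and the −log10 of the p-value and q-value. From them, the bases under peaks were computed per window, bin and tile with Python 3.11.15, in 1-based coordinates. Shares were compared by exact permutation of samples, and bins of 10 kb with limma 3.58.1 in R 4.3.3, on log2 values centred per list, with Benjamini-Hochberg adjustment over all bins covered in at least 2 libraries. The limma fit was also run on simulated normal values with the variances of the main fit. That run left out the filter, pseudocount and centring, so it does not check those steps. H3K27ac bins were not fitted because no Hox bin had a covered base. Results per gene promoter and the marker genes were not run without an mm39 annotation. Members, windows and tests were chosen with earlier results of these data known. Positions named are the 10 longest breaks, some of the strongest peaks per list and window, and regions in all or 1 genotype's lists. The strongest peaks of Hoxc and of control 1 are not given by position, and no Hox bin passed the threshold in the main fit. The regions, steps along each cluster, bins of lowest p, 100 kb tiles and promoters shown were chosen after their values were seen. Alternatives changed window edges, thresholds, list length, pseudocount, filter, scaling, bin width and libraries.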

Additional observations from a re-analysis of the deposited data

How the results depend on the processing

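The knockout minus control difference in H3K27me3 share kept its sign in 25 of 50 alternatives and turned in 25; none could pass the exact test. With lists of equal length it was −1.39 points for Hoxa, −0.224 for Hoxb, −1.78 for Hoxc, −2.30 for Hoxd and −1.29 for the 4 windows. With a −log10 q of at least 10, it was −5.13, −2.41, −6.48, −9.83 and −5.52. No control 1 peak reached that limit, and control 1 was left out there, not counted as 0. The mean of 28.3% for the controls over the 4 windows is thus control 2 alone, against 22.8% in the knockouts. These minus signs therefore rest on leaving out control 1, and they are among the 25 that turned. With the 3 lists other than control 1 cut to equal length, chosen after seeing the data, it was −7.48, −4.75, −9.58, −12.9 and −8.19. Leaving out 1 library at a time gave −12.5 to 17.0, −9.97 to 26.5, −11.0 to 32.6, −18.1 to 28.7 and −12.4 to 26.4. Windows trimmed or widened by 10 kb gave 6.27 and 7.90 for the 4 windows. H3K27ac stayed at 0 in 55 of 55 alternatives. Common breaks numbered 104 at 1 kb or longer and 4 at 5 kb or longer, against 33, and 34 to 55 when 1 list was left out. Hox bins called lower were 11 with quantile normalization and 0 to 10 when 1 library was left out, and those called higher 0 to 9 (without control 2, where 4.69% and 32.8% of all bins were called); the other settings called 0. Without centring the median Hox change was −0.02, with 27 of 55 bins above 0 and a median of 1.82 over all bins. Whether same-numbered samples of the 2 genotypes were processed together is not given in the labels, so the main tests did not pair them. The deviations of the samples numbered 1 from their group means correlated at 0.00261 over bins. With 2 lists per genotype and another threshold in control 1, this value cannot decide whether they share a batch. With the replicate block the paired permutation p was 0.5 for a difference of 6.97, with 0 Hox bins called in either direction. The cause of these changes was not tested.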

Other observations

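Outside the Hox clusters, 3 tiles of 100 kb that control 2 and knockout 2 covered to at least 20% had low knockout 1 values beside knockout 2. The lowest Hox ratios of knockout 1 to knockout 2 were 0.0502 for Hoxd at chr2:74500001-74600000 and 0.0796 for Hoxa at chr6:52100001-52200000. The tile chr3:96300001-96400000 was covered to 2.90% in control 1, 20.5% in control 2, 2.02% in knockout 1 and 28.3% in knockout 2. Its ratio of 0.0716 lay between those Hox values. The ratio was 0.081 at chr19:55700001-55800000 and 0.0943 at chr11:98200001-98300000, above both Hox values. These tiles were picked for their low ratios after the values were seen, and their genes were not looked up, since the gene table is of another build.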
